A study of Mus musculus with 9 samples.

Results

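The 9 genes Slc6a19, Slc6a18, Slc7a7, Slc7a8, Slc7a9, Slc7a13, Slc3a1, Slc3a2 and Slc1a1 encode amino acid transporters, or the partner subunits of transporters, of the kidney proximal tubule. They were chosen by name, and all 9 were found among the 32427 genes listed in 9 single-cell RNA libraries of mouse kidney. Their transcripts were read in 161627 proximal tubule (PT) cells out of 196925 cells kept. Each library came from a male C57BL/6 mouse, 6 weeks old at the start, and 3 mice made up each group. Control mice received saline by intraperitoneal injection. AKI-CKD mice received cisplatin at 8 mg/kg once a week for 4 injections, a model of acute kidney injury (AKI) passing into chronic kidney disease (CKD). AKI-CKD + EGT mice received the same cisplatin together with ergothioneine (EGT), a dietary thiol compound, at 0.5 mg/mL in the drinking water from 3 days before cisplatin onward. Kidneys were taken after 8 weeks, so each value describes the tissue at that single time, and no group received EGT without cisplatin.

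Amino acids are filtered at the glomerulus and are taken back almost completely by the proximal tubule, whose consecutive segments are called S1, S2 and S3. A luminal carrier moves the amino acid from the tubular fluid into the cell, and a basolateral exchanger or channel-like carrier passes it on to the blood. Several of these carriers are heteromers, in which a light subunit of the Slc7 family forms the transport path and a heavy subunit, Slc3a1 (rBAT) or Slc3a2, brings it to the membrane. Inherited loss of SLC6A19 causes Hartnup disorder, loss of SLC3A1 or SLC7A9 causes cystinuria, and loss of SLC7A7 causes lysinuric protein intolerance.

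The segments were assigned to clusters of cells from fixed markers, which did not include any of the 9 genes, and the 9 genes were also left out of the clustering. S1-like cells (markers such as Slc5a2 and Slc5a12) numbered 56127, S2-like cells (Slc22a6, Slc22a8) 69906 and S3-like cells (Slc22a7, Slc22a13, Cyp7b1) 3668, and a further 31926 PT cells belonged to clusters given no segment. Among the last, 2 clusters with 7118 cells were led by genes such as H2-Ab1 and Cd74 or Sparc and C3, with more markers of other cell types than of PT among their 10 leading genes. Without them, 0 of the 9 genes were called in all PT cells in either group comparison, as with them. This alternative was chosen after seeing the data. With these 2 clusters kept, 0.0447% of all 17914 genes tested were called for cisplatin alone compared with saline. When EGT was added to cisplatin, 0.0% were called, so a count of 0 among 9 genes says little about the effect of these clusters. The S3-like cells were the thinnest population, with 104 to 875 cells per mouse. S2-like clusters of 18316, 15208, 13108 and 5878 cells also scored above the mean of PT clusters for S3 markers (0.18 to 0.58 in SDs across clusters). Their S2 scores were higher (0.61 to 1.02). S2-like cells may therefore include S3 cells, which was not tested. The libraries held 70106161 to 101525691 unique molecular identifiers (UMIs, one per captured transcript), with medians of 2534 to 2966 per kept cell, and 14010 to 22059 kept barcode names per library also occurred in another library, where barcodes are serial labels. RNA of the proximal tubule was found in every cell type: the 16 PT markers reached a median of 52.6% ± 7.80 (SD, n = 9 mice) of their PT level in T cells and 61.0% ± 10.9 in B cells. The median ran from 34.7% ± 12.4 in intercalated cells of the collecting duct to 74.8% ± 4.86 in macrophages, so background depends on the cell type taken. T cell levels are given below beside low transporter levels as 1 such reference. The third AKI-CKD + EGT library stood apart, with PT cells making up 60.1% of its cells compared with 78.4% to 89.9% in the other 8. Cdkn1a, a cell cycle inhibitor induced by DNA damage, was 11.3-fold higher in PT cells of AKI-CKD than of Control mice (log2 difference 3.50 ± 0.47 SE, adjusted p = 0.0345), and Phlda3, another p53 target, was 9.44-fold higher (log2 difference 3.24 ± 0.34 SE, adjusted p = 0.0148). Both calls were lost in some alternatives, since leaving out 1 mouse gave 0 to 11 called genes in all and a replicate block gave 0.

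The luminal carriers of neutral amino acids divided between the ends of the proximal tubule. Slc6a19, the main sodium-dependent carrier for neutral amino acids, was measured at 345 ± 53.7 CPM (the gene's UMIs scaled to the total UMIs of those cells; mean ± SD, n = 9 mice) in S1-like cells, at 80.4 ± 10.8 in S2-like cells and at 38.3 ± 13.1 in S3-like cells. The S1-like level exceeded the S3-like level in 9 of 9 mice, by 3.24 ± 0.51 (SD) on the log2 scale. Slc6a19 was at 98.5 ± 33.4 CPM in T cells, above its S2-like and S3-like means. Its relative Slc6a18, which carries glycine and other neutral amino acids, had the opposite order, with 29.4 ± 7.16 CPM in S1-like, 155 ± 30.6 in S2-like and 227 ± 44.1 in S3-like cells, and the S3-like level was the highest of the 3 in 9 of 9 mice. Both carriers need a partner protein at the brush border, and the kidney partner Cltrn (collectrin) was nearly even along the tubule, with a log2 ratio of S1-like over S3-like cells of 0.24 ± 0.20 (SD, n = 9 mice). Clusters were made from the same cells, so these orders are descriptions without a test.

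The basolateral exchangers followed Slc6a19. Slc7a7, which exports cationic amino acids in exchange for neutral ones, stood at 348 ± 60.8 CPM in S1-like, 91.9 ± 24.4 in S2-like and 56.4 ± 13.2 in S3-like cells (SD, n = 9 mice). Slc7a8, an exchanger of neutral amino acids, was measured at 136 ± 21.0 CPM in S1-like, 30.02 ± 8.94 in S2-like and 23.6 ± 12.1 in S3-like cells. Slc3a2, the heavy subunit of both, was at 236 ± 63.8, 79.8 ± 22.3 and 58.2 ± 24.9 CPM in the same order. The S1-like level was above the S2-like level in 9 of 9 mice for each of the 3 genes. The S2-like level was above the S3-like level in 9 of 9 mice for Slc3a2 (log2 ratio 0.51 ± 0.23, SD) and in 7 of 9 for Slc7a8 (0.43 ± 0.41). In T cells Slc7a7 was at 110.2 ± 31.2 CPM and Slc7a8 at 47.0 ± 27.1, so for both genes the S2-like and S3-like means lay below the T cell mean. Slc3a2 was at 153 ± 50.8 CPM there, but it exceeded the PT markers in T cells of 9 of 9 mice. The T cell level is therefore no measure of background for Slc3a2.

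Slc3a1, the heavy subunit of the luminal cystine carrier, showed a shallower course than its light subunit Slc7a9 and in the other direction. Slc3a1 was at 168 ± 16.9 CPM in S1-like, 212 ± 33.5 in S2-like and 263 ± 57.4 in S3-like cells (SD, n = 9 mice), whereas Slc7a9, which exchanges cystine and cationic amino acids for neutral ones, was at 191 ± 17.1, 94.8 ± 14.4 and 68.6 ± 12.1 CPM. The S1-like over S3-like log2 ratio was -0.62 ± 0.24 for Slc3a1 and 1.495 ± 0.21 for Slc7a9, and in each gene the sign was the same in 9 of 9 mice. The S3-like mean of Slc7a9 lay below its T cell mean of 73.5 ± 25.6 CPM, by less than the SD. It was also below the macrophage mean (101.2 ± 21.6) but above the endothelial mean (64.0 ± 15.1). Slc7a13, a light subunit for aspartate, glutamate and cystine that also pairs with Slc3a1, was the member with the steepest course, at 60.1 ± 29.2 CPM in S1-like, 497 ± 223 in S2-like and 779 ± 298 in S3-like cells. The S3-like level of Slc7a13 was the highest in 9 of 9 mice, although its spread between mice was wider than the step from S2-like to S3-like cells. Slc1a1, the luminal carrier of glutamate and aspartate, was the flattest member, with 120.3 ± 11.8, 105 ± 10.6 and 99.6 ± 16.3 CPM from S1-like to S3-like cells, and its S2-like and S3-like levels differed by less than the SD.

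**Figure D1:**
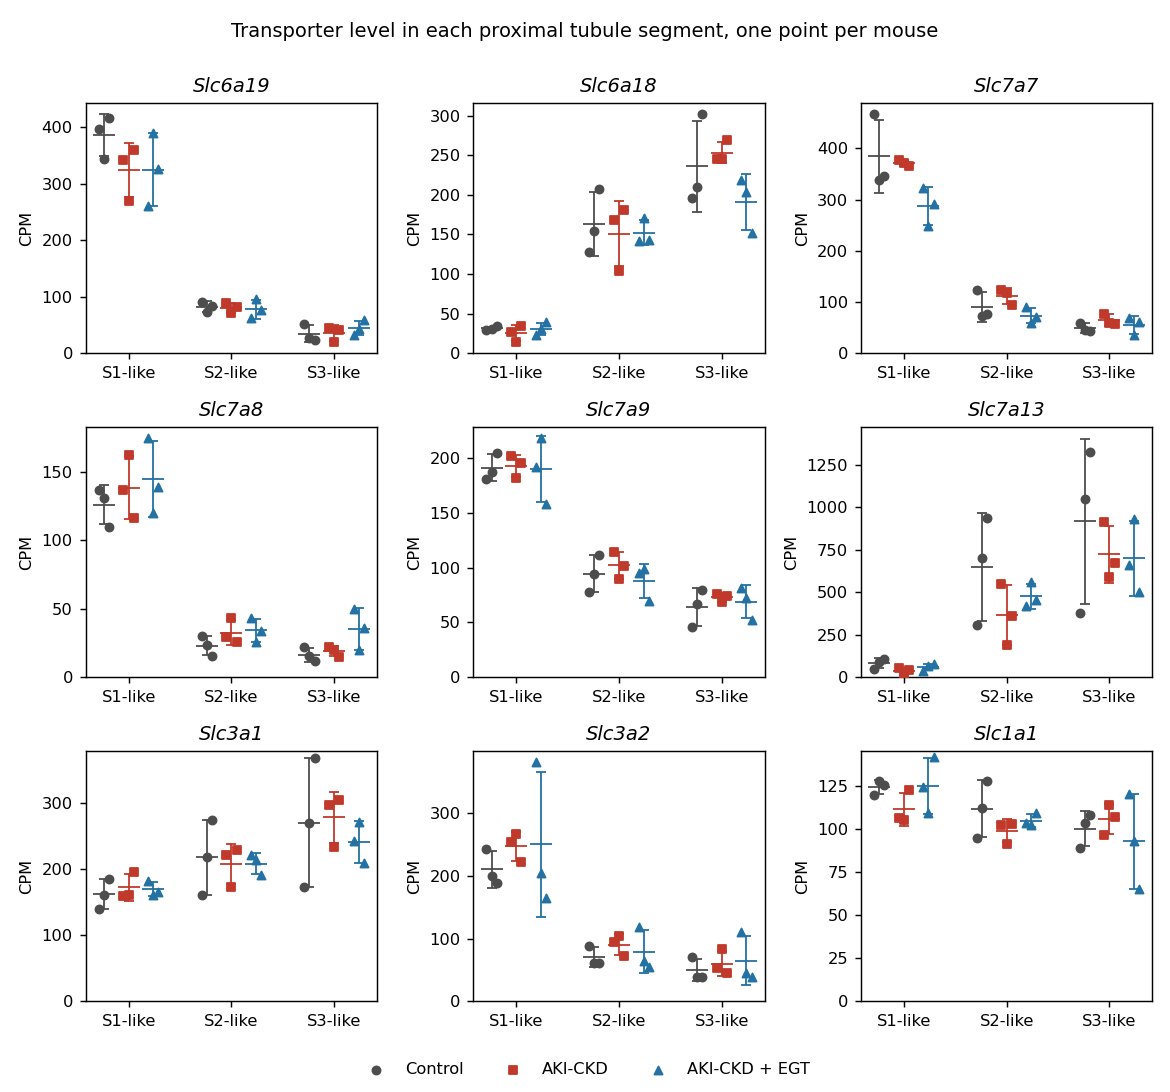
CPM of each of the 9 genes (vertical axes, linear and starting at 0) in S1-like, S2-like and S3-like cells (horizontal axes), with one point per mouse, grouped as Control, AKI-CKD and AKI-CKD + EGT, and a dash and bars for the mean ± SD of 3 mice. Slc6a19, Slc7a7, Slc7a8, Slc7a9 and Slc3a2 are highest in S1-like cells, Slc6a18, Slc7a13 and Slc3a1 in S3-like cells, and Slc1a1 is nearly level.

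The share of cells with at least 1 UMI gave the same orders. With every cell thinned to 1000 UMIs, a Slc6a19 UMI was found in 26.1% ± 3.72 of S1-like cells, 7.56% ± 1.17 of S2-like cells and 4.02% ± 1.52 of S3-like cells (SD, n = 9 mice), and in 6.98% ± 2.48 of T cells, which should lack the gene. Before thinning these shares were 56.9%, 20.8%, 11.1% and 17.5%, at median depths of 2907, 2655, 2872.5 and 2310.0 UMIs per cell. The S3-like share of Slc6a19 was therefore at or below background, and its S2-like share lay within the SD of the T cell share. The S3-like share of Slc7a7 was also at or below background, at 4.92% ± 0.997 in S3-like against 7.54% ± 2.89 in T cells. At the other end of the tubule, Slc6a18 was found in 2.80% ± 0.684 of S1-like cells against 5.37% ± 2.48 of T cells, and Slc7a13 in 5.17% ± 2.22 against 9.41% ± 4.99. A Slc7a13 UMI was found in 46.4% ± 12.9 of S3-like cells and 30.03% ± 11.03 of S2-like cells at the thinned depth.

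Outside the proximal tubule, the 9 genes were read against the level that PT marker RNA reached in the same cells. For each of 14 other cell types, the level of a gene relative to PT cells was divided by the same quantity for the 16 PT markers, so that a ratio of 1 is background if the cells make no PT RNA themselves. Cells led by cell cycle markers were named by those markers alone. They may include dividing PT cells, which was not tested. Slc6a19, Slc7a7, Slc7a9, Slc7a13, Slc3a1 and Slc1a1 had mean ratios between 0.606 and 1.396 in all 14 types, except Slc1a1 in the thin limb at 1.73 ± 0.66 (SD, n = 9 mice). The highest of these was Slc7a7 in cells led by cell cycle markers, at 97.8% ± 10.4 of its PT level where the markers reached 70.2% ± 3.96, a ratio of 1.396 ± 0.16 with 9 of 9 mice above 1. Slc3a2, a subunit that many cell types use, was above the markers in all 14 types, at 2.48 ± 0.85 in collecting duct principal cells (CD-PC), 2.43 ± 0.40 in endothelial cells and 2.06 ± 0.47 in T cells, each in 9 of 9 mice. Slc7a8 was above them in 9 of 9 mice in CD-PC (2.68 ± 1.09), in intercalated cells of the collecting duct (CD-IC, 2.41 ± 0.98) in the distal convoluted tubule (DCT, 1.55 ± 0.37) and in cells led by cell cycle markers (1.83 ± 0.29), where it stood at 128.5% ± 20.6 of its PT level. Slc6a18 stood at 109 ± 35.7 CPM in thin-limb-like cells, 107.6% ± 46.2 of its PT level where the markers reached 44.2% ± 16.3. It was above the markers in 9 of 9 mice at a widely spread ratio of 3.60 ± 4.46, with 32 to 139 of these cells per mouse.

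**Figure D2:**
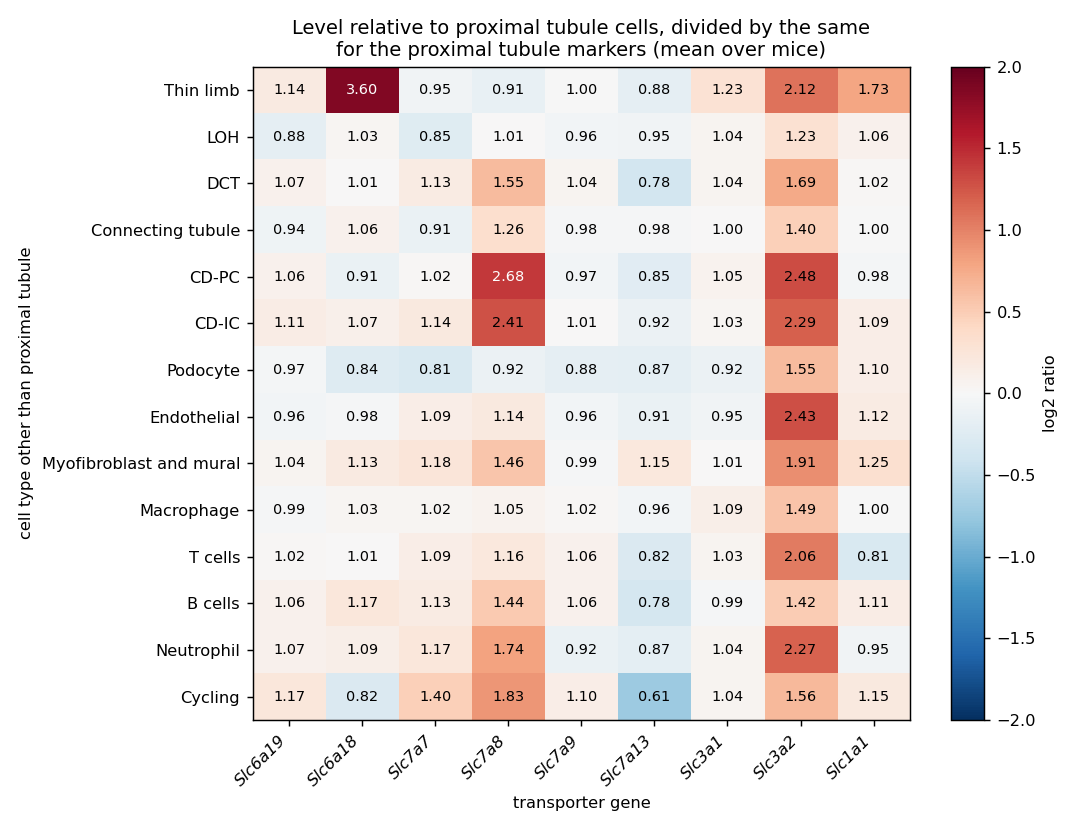
Ratio of each gene's level to its PT level, divided by the median of that ratio for 16 PT markers, in 14 cell types other than PT (rows) and 9 genes (columns), as the mean over mice with at least 20 cells of the type; the colour is log2 of the number printed. Slc3a2 is above 1 in all 14 types, and other high squares are Slc7a8 in CD-PC (2.68), CD-IC (2.41), cycling cells (1.83), neutrophils (1.74 ± 2.18 SD, above 1 in 3 of 9 mice) and DCT (1.55), and Slc6a18 (3.60 ± 4.46 SD) and Slc1a1 (1.73 ± 0.66 SD) in the thin limb. Cycling cells may include PT cells.

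Across 17 named cell types and segments, the pairs most alike were Slc6a19 with Slc7a7 (Pearson's r = 0.96 over log2(CPM + 1) of 17 points) and Slc6a18 with Slc7a13 (r = 0.92), and the pair most unlike was Slc6a18 with Slc7a8 (r = -0.69). Among 17905 other genes, the closest to Slc6a19 were Slc5a2, the glucose carrier of the early proximal tubule (r = 0.99), and Prodh2 (r = 0.98), and the closest to Slc7a7 were Cyp2d26 and Slc5a2. Slc7a13 lay closest to Cyp2d9 and Slco1a1 (both r = 0.98), Slc6a18 to Ldc1 (r = 0.95) and Slc5a10 (r = 0.94), and Slc7a9 to Slc4a4, the basolateral bicarbonate carrier (r = 0.98), and Cryl1 (r = 0.98). The closest genes were Guca2b and Tmt1b for Slc3a1 (both r = 0.99), Cldn2 (r = 0.97) and Armh4 (r = 0.97) for Slc1a1, Cacul1 (r = 0.91) and 4921539H07Rik (r = 0.89) for Slc7a8, and Mafg and Slc5a12 for Slc3a2 (both r = 0.91). The points share libraries and background RNA, and Slc5a2, Slc5a12 and Slc4a4 were themselves segment markers, so these values are descriptive.

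Whether cisplatin changed the transporters was asked by summing the UMIs of each mouse over its PT cells and comparing 3 AKI-CKD with 3 Control mice in edgeR's quasi-likelihood test, adjusted over all genes tested. None of the 9 genes passed an adjusted p of 0.05 in all PT cells, where 0.0447% of 17914 genes did, and none had an unadjusted p under 0.05, which 10.9% of all genes had. DESeq2 called 0 of the 9 and 1.16% of all genes. The median log2 difference over the 9 genes was 0.06, and over all genes tested it was -0.01. Values below are CPM after scaling by edgeR's trimmed mean of M-values (TMM).

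Slc7a13 had the largest log2 difference of the 9 in either direction. It was measured at 193, 502 and 671 TMM-scaled CPM in the Control mice, at 342, 111 and 264 in the AKI-CKD mice, and at 255, 347 and 259.6 in the AKI-CKD + EGT mice. The first Control mouse lay among the cisplatin-treated mice, so the groups overlapped. The log2 difference of AKI-CKD against Control was -0.93 ± 0.45 (SE; 95% interval -1.92 to 0.06, adjusted p = 0.471), and it was -0.58 without the second AKI-CKD mouse, the lowest of the 9, and -0.54 without the third Control mouse, the highest.

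Slc3a2 and Slc7a8 were higher on average in AKI-CKD, within the spread between mice. Slc3a2 was at 147, 119 and 98.3 TMM-scaled CPM in Control and 163, 196 and 145 in AKI-CKD mice, a log2 difference of 0.47 ± 0.31 (SE; 95% interval -0.22 to 1.16, adjusted p = 0.570). Slc7a8 was at 73.7, 68.9 and 48.9 in Control and 79.1, 113 and 68.9 in AKI-CKD mice, a log2 difference of 0.45 ± 0.24 (SE; 95% interval -0.08 to 0.98, adjusted p = 0.499). In both genes the groups overlapped.

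Slc7a9 was, on TMM-scaled CPM, the only one of the 9 whose 2 groups did not overlap in all PT cells, with 116, 134 and 137 TMM-scaled CPM in Control and 155, 142 and 154 in AKI-CKD mice, and the same was true of 20.1% of all genes tested. On plain CPM, without TMM scaling, Slc1a1 did not overlap either, with AKI-CKD mice the lower, as was the case in either direction for 18.9% of all genes. The log2 difference of Slc7a9 was 0.22 ± 0.16 (SE; 95% interval -0.14 to 0.58, adjusted p = 0.605). The remaining 5 genes differed by -0.17 (Slc6a18) to 0.26 (Slc7a7) on the log2 scale. The 95% interval of Slc6a19 ran from -0.28 to 0.36, that of Slc3a1 from -0.39 to 0.52 and that of Slc1a1 from -0.37 to 0.18, so a change of 2-fold lay outside the interval of each of these 3.

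Within segments the result was the same for AKI-CKD against Control. In S1-like cells 0 of the 9 were called, where 0.0192% of genes were; in S2-like cells 0 were called, where 0.0631% were; and in S3-like cells 0 were called, where 0.102% were. DESeq2 called 0 of the 9 in each segment, and 0.947%, 1.09% and 0.153% of all genes from S1-like to S3-like cells. Slc7a13 in S1-like cells was the only one with an unadjusted p under 0.05, which 12.9% of all genes tested there had (10.7% in S2-like and 5.78% in S3-like cells), with a log2 difference of -1.09 ± 0.42 (SE, unadjusted p = 0.0242, adjusted p = 0.343), and its level there was at background. In S2-like cells the difference of Slc7a13 was -0.81 ± 0.39 (adjusted p = 0.492) and in S3-like cells -0.40 ± 0.31 (adjusted p = 0.974). In S1-like cells Slc7a9 and Slc3a2 had groups that did not overlap, both higher in AKI-CKD, as did 21.0% of all genes there, but on plain CPM, as plotted by segment, both overlapped; in S2-like and S3-like cells 0 of the 9 did, compared with 18.4% and 11.7% of all genes.

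**Figure D3:**
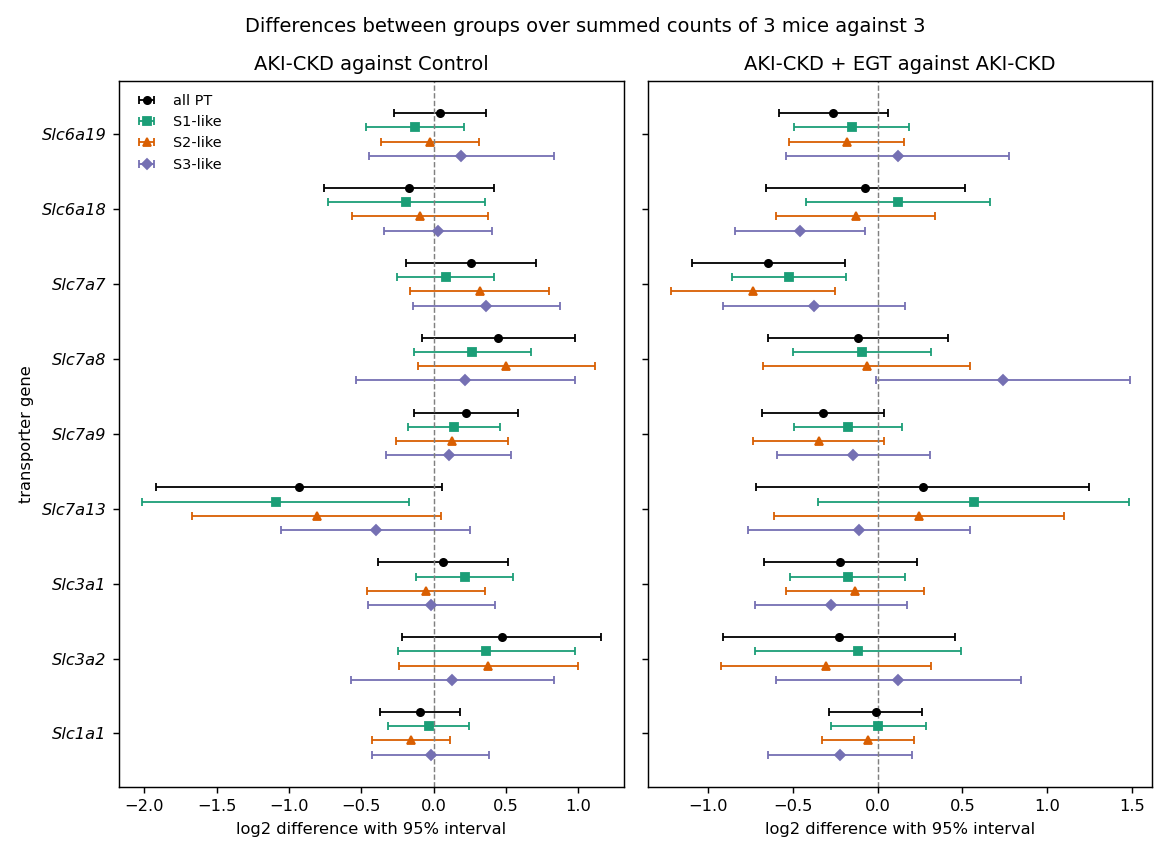
Log2 differences (horizontal axes) with 95% intervals for the 9 genes (vertical axis) in all PT cells and in the 3 segments, for AKI-CKD against Control on the left and AKI-CKD + EGT against AKI-CKD on the right; the dashed line marks no difference. Intervals of Slc7a7 lie below the line on the right in all PT cells, S1-like and S2-like cells. So do those of Slc6a18 in S3-like cells on the right and of Slc7a13 in S1-like cells on the left. The intervals of Slc7a13 are the widest of the 9 in all PT cells.

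Adding EGT to cisplatin was compared with cisplatin alone in the same fits, which share the AKI-CKD mice with the comparison above. None of the 9 genes passed an adjusted p of 0.05 in all PT cells, where 0.0% of 17914 genes did by edgeR, 14.9% had an unadjusted p under 0.05, and DESeq2 called 431 genes (2.41%) but 0 of the 9. The median log2 difference over the 9 genes was -0.22, and over all genes tested it was -0.01; 8 of the 9 had a negative sign.

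Slc7a7 had the lowest unadjusted p of the 9. It was measured at 236, 258 and 223 TMM-scaled CPM in AKI-CKD mice and at 192, 127 and 139 in AKI-CKD + EGT mice, while Control mice gave 257, 182 and 160.3. Every AKI-CKD + EGT mouse lay below every AKI-CKD mouse, and the Control mice spanned from the one group to the other. The log2 difference was -0.65 ± 0.20 (SE; 95% interval -1.10 to -0.19, unadjusted p = 0.00938, adjusted p = 0.241), and over the alternative settings its adjusted p ran from 0.0725 to 0.623.

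The difference of Slc7a7 had the same sign in every segment. In S1-like cells the AKI-CKD mice gave 384, 412 and 394 TMM-scaled CPM and the AKI-CKD + EGT mice 326, 238 and 264, a log2 difference of -0.52 ± 0.15 (SE, adjusted p = 0.288). In S2-like cells they gave 126.5, 122 and 98.8 against 87.9, 56.2 and 64.0, a log2 difference of -0.74 ± 0.22 (SE, adjusted p = 0.210), although the S2-like level of 91.9 CPM was no higher than the 110.2 ± 31.2 CPM (SD, n = 9 mice) of T cells. In S3-like cells the difference was -0.38 ± 0.26. The groups did not overlap in S1-like or S2-like cells, and each AKI-CKD + EGT mouse was the lower. In S2-like cells DESeq2 did call Slc7a7 (adjusted p = 0.0419) with 2.34% of all genes, as did edgeR without a filter on low counts (adjusted p = 0.000135) with 3.35% of them, while over all settings there the adjusted p ran from 0.000135 to 0.563.

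Its partner and neighbours did not follow as clearly. Slc3a2 was at 231, 111 and 87.6 TMM-scaled CPM in the AKI-CKD + EGT mice, which spans all 3 AKI-CKD values, and its log2 difference was -0.23 ± 0.31 (SE; 95% interval -0.91 to 0.46). Single libraries set its sign, since it was -0.77 without the first AKI-CKD + EGT mouse and 0.033 without the third, the library that stood apart. Slc7a9 was at 136, 135 and 90.7 CPM in AKI-CKD + EGT, below all 3 AKI-CKD mice, a log2 difference of -0.32 ± 0.16 (SE, adjusted p = 0.377), which was -0.15 without the third AKI-CKD + EGT mouse. Slc7a7 and Slc7a9 were thus the 2 of 9 whose groups did not overlap in all PT cells, and 21.0% of all genes tested had groups that did not overlap. On plain CPM Slc7a9 overlapped here and in S2-like cells, while Slc7a7 did not in either, as was true of 25.1% and 23.7% of all genes. Slc6a19 differed by -0.26 ± 0.14 (SE; 95% interval -0.58 to 0.06), Slc3a1 by -0.22 ± 0.20 (-0.11 without the third AKI-CKD + EGT mouse) and Slc1a1 by -0.01 ± 0.12.

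Within segments 0 of the 9 were called for AKI-CKD + EGT against AKI-CKD by edgeR, where 0.0% of genes in S1-like cells, 0.0% in S2-like cells and 0.102% in S3-like cells were. One of the 9 had an unadjusted p under 0.05 in each segment, which was Slc7a7 in S1-like and S2-like cells and Slc6a18 in S3-like cells, compared with 10.9%, 13.7% and 7.39% of all genes tested. In S3-like cells Slc6a18 was at 251, 242 and 264 TMM-scaled CPM with cisplatin alone and 208, 196 and 145 with EGT added, and Control mice gave 209, 229.5 and 301. Every AKI-CKD + EGT mouse was lower than every AKI-CKD mouse. The log2 difference was -0.46 ± 0.18 (SE, unadjusted p = 0.0218, adjusted p = 0.567). Groups did not overlap for 1 of the 9 in S1-like cells (16.0% of all genes), 2 in S2-like cells (18.7%) and 1 in S3-like cells (13.1%).

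Whether the 2 ends of the tubule responded differently was tested as the difference of the S3-like and S1-like effects within the same mice. By edgeR Slc7a13 was the only one of the 9 that passed, for both comparisons, where 0.249% of 14047 genes passed for AKI-CKD against Control and 0.235% for AKI-CKD + EGT against AKI-CKD, but it did not pass once the spread between mice was used. The edgeR difference, S3-like minus S1-like, was 0.86 ± 0.15 on the log2 scale (SE, adjusted p = 0.000122) for AKI-CKD against Control. For EGT added to cisplatin it was -0.82 ± 0.16 (SE, adjusted p = 0.000292). That fit took its spread almost wholly from all genes together (4508 degrees of freedom), so these SEs do not measure how far Slc7a13 varied between mice. With limma on the segment difference of each mouse, an alternative added after seeing the data, Slc7a13 gave 0.94 ± 0.60 (SE, adjusted p = 0.933) and -0.91 ± 0.60 (SE, adjusted p = 0.875), and 0 of the 9 genes were called in either comparison. The share of all genes that limma called is not given beside this count, so a count of 0 among 9 genes says little by itself. The 2 tests share the AKI-CKD mice. The Slc7a13 level in S1-like cells was 13.1%, 8.81% and 8.19% of the S3-like level in the Control mice, 5.85%, 2.25% and 6.43% in the AKI-CKD mice, and 5.79%, 7.03% and 15.4% in the AKI-CKD + EGT mice. These ratios did not overlap between Control and AKI-CKD mice (exact two-sided permutation p = 0.1, the smallest that 3 against 3 can give) and overlapped between AKI-CKD and AKI-CKD + EGT mice (p = 0.3). The same test was run for the 9 genes in both comparisons, and 4 of the 18 tests reached 0.1. These were Slc7a7, Slc7a13 and Slc1a1 for AKI-CKD against Control, where the ratios of 10.7% of 14047 genes did not overlap, and Slc7a8 for EGT added to cisplatin, where those of 9.03% did not.

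The edgeR calls of Slc7a13 also rested on single mice and on an S1-like level below that of T cells. In all 9 mice the S1-like level was below that in T cells of the same mouse, for example 13.2 against 19.4 CPM in the second AKI-CKD mouse and 108 against 399.8 CPM in the third Control mouse. The T cell values rested on 9 to 114 UMIs per mouse, and in the third AKI-CKD + EGT mouse the levels were close, at 77.1 and 79.6 CPM. In the edgeR fit the difference without the second AKI-CKD mouse was 0.53 (adjusted p = 0.165) and -0.49 (adjusted p = 0.279), and without the third AKI-CKD + EGT mouse, the library that stood apart, the second was -0.41 (adjusted p = 1.0). With clusters made without Harmony, the alignment of libraries, they were 0.71 (adjusted p = 0.0620) and -0.70 (adjusted p = 0.0976). With S2-like cells in place of S1-like cells, an alternative chosen after seeing the data and with the same pooled spread, the S3-like minus S2-like differences were 0.40 ± 0.10 (adjusted p = 0.0369) and -0.41 ± 0.10 (adjusted p = 0.04995). Of 10 genes set off by tissue dissociation, 4 (Egr1, Fosb, Hspa1a and Jun) passed the same edgeR test for AKI-CKD against Control, all with a negative sign, and 2 (Fosb and Jun) passed for AKI-CKD + EGT against AKI-CKD, both with a positive one, and their part in the Slc7a13 result was not tested. Those calls rest on the same pooled spread, which does not measure how far these genes varied between mice. Fos, another of the 10, was among the leading genes of an S1-like cluster of 11434 cells, with Cxcl10 and Nfkbia. The part of that cluster in the segment differences was not tested.

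**Figure D4:**
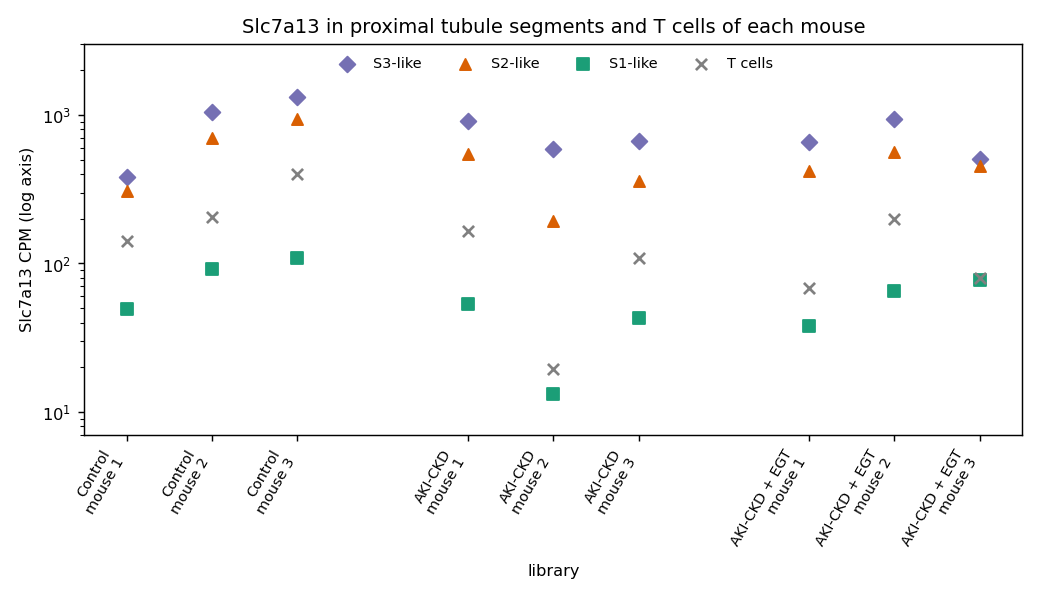
Slc7a13 CPM (vertical axis, log scale) in S3-like, S2-like and S1-like cells and in T cells of each of the 9 mice (horizontal axis, by group). In every mouse the S1-like square lies below the T cell cross, by little in the third AKI-CKD + EGT mouse, and the second AKI-CKD mouse has the lowest S1-like and T cell values, at 13.2 and 19.4 CPM.

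The share of each segment among PT cells was compared between the groups. In the order Control, AKI-CKD, AKI-CKD + EGT, S1-like cells made up 32.8% ± 3.76, 37.0% ± 3.23 and 35.3% ± 1.68 of PT cells (SD, n = 3 each), S2-like cells 44.0% ± 1.99, 43.2% ± 4.11 and 41.4% ± 1.56, and S3-like cells 2.82% ± 1.20, 1.64% ± 0.87 and 2.04% ± 0.97. The 6 exact two-sided permutation tests gave p = 0.2 to 0.9 (0.84 to 0.90 after Benjamini-Hochberg adjustment over 6), and 3 mice against 3 cannot give less than 0.1. With segments set by the marker scores of each cell, S3-like cells were far more numerous. In Control mice they then numbered 4265, 5381 and 5935 of 18822, 23059 and 21170 PT cells. In AKI-CKD mice they numbered 3089, 2399 and 3755 of 20436, 15770 and 20911, and in AKI-CKD + EGT mice 1968, 3772 and 2840 of 14261, 16911 and 10287. As shares of PT cells, all Control mice lay above all AKI-CKD mice, and the AKI-CKD + EGT mice overlapped both groups. Segment shares under this definition were not tested. Sums over all PT cells move with segment shares, and the part of these shares in the transporter differences was not tested.

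The brush border partners and other amino acid transporters gave no call either. Cltrn and Anpep, a brush border peptidase, were not called in any population or comparison. When EGT was added to cisplatin, the log2 difference in all PT cells was -0.32 ± 0.29 (SE) for Cltrn and -0.21 ± 0.13 (SE) for Anpep. Of 18 other proximal tubule amino acid and peptide transporters, 14 were tested in all PT cells and 0 were called in either comparison, with median log2 differences of 0.08 and -0.06. The 4 most abundant of them, the taurine carrier Slc6a6, Slc6a13, the neutral amino acid exporter Slc43a2 and Slc6a20b, ranged from -0.14 to 0.39 for AKI-CKD against Control and from -0.37 to 0.02 for AKI-CKD + EGT against AKI-CKD. Of 10 widely expressed or stress-induced transporters, 8 were tested and 0 were called, with medians of -0.22 and 0.54; 4 of the 8, Slc38a2, Slc1a4, Slc6a9 and Slc1a5, averaged 19.6, 6.14, 6.09 and 1.19 CPM in PT cells. In the tubule injury list, 2 of 11 tested genes, Cdkn1a and Phlda3, rose in AKI-CKD and 0 fell, and for AKI-CKD + EGT against AKI-CKD in all PT cells 0 of 11 were called by edgeR, with log2 differences of -1.58 ± 0.43 and -1.91 ± 0.32 (SE) for these 2 genes. In S3-like cells Phlda3 fell by 2.98 on the log2 scale with EGT (adjusted p = 0.0410).

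Markers of other cell types and of RNA quality were read in the same PT cells. The 7 connecting tubule markers summed to 319.5 to 804 CPM in Control mice, 219 to 503 with cisplatin alone and 638 to 2393 with cisplatin and EGT, and none of them was at 0. The 8 DCT markers summed to 163 to 245 CPM in Control mice, 100.3 to 131 with cisplatin alone and 189 to 401 with cisplatin and EGT, so that the AKI-CKD mice lay below both other groups, and none was at 0. The sums for the loop of Henle, CD-PC and CD-IC markers were also higher in every AKI-CKD + EGT mouse than in every AKI-CKD mouse, and so was haemoglobin RNA, at 9.73 to 58.4 CPM compared with 0.20 to 2.24 CPM (0.887 to 80.4 CPM in Control mice). The cell cycle markers summed to 49.1 to 57.8 CPM in Control mice, 59.1 to 67.3 with cisplatin alone and 55.7 to 66.8 with cisplatin and EGT, so that every AKI-CKD mouse lay above every Control mouse. Ribosomal protein UMIs made up 6.51% to 7.17% of PT UMIs in Control mice, 8.13% to 8.90% with cisplatin alone and 6.596% to 7.54% with cisplatin and EGT, and here the AKI-CKD mice lay above both other groups. Mitochondrial UMIs made up 1.502% to 5.97% of PT UMIs in Control mice, 1.92% to 3.03% with cisplatin alone and 3.43% to 5.71% with cisplatin and EGT. The 10 dissociation genes summed to 959.9 to 2632 CPM, 1442 to 2887 CPM and 1275.5 to 3021 CPM in the same groups. The part of the other cell types' markers, of haemoglobin and of the dissociation genes in the transporter values was not tested. With at most 10% mitochondrial UMIs per cell, the Slc7a7 difference of AKI-CKD + EGT against AKI-CKD was -0.64 ± 0.21 (SE, adjusted p = 0.267), and with library sizes that leave out mitochondrial, ribosomal protein and Malat1 UMIs it was -0.65 ± 0.20 (SE, adjusted p = 0.233).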

How the data were processed

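The deposited files were tables of UMI counts per gene and cell, made by the authors from droplet libraries (part of a kidney each) against GRCm39 per the submitters' notes, with no further normalization. Barcodes were kept from 1000 UMIs and 500 genes upward if mitochondrial UMIs did not exceed 15%, which left 196925 of 216680; the study states fewer cells after the same limits, and the gap was not resolved. Cells were clustered (2000 variable genes without the 9 transporters, 30 principal components, a re-written Harmony alignment of libraries, Leiden at resolution 1.1; scanpy 1.11.5, leidenalg 0.10.2, Python 3.11.15). Types and segments were named from fixed markers, while the rules that settled unclear clusters were set after the clusters were seen. Scrublet's caller marked 2 cells in all, so it did not work and no doublets were removed; an alternative left out the top 6.0% of scores.

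UMIs were summed per mouse and population and tested with edgeR 4.0.16 in R 4.3.3 (quasi-likelihood, TMM, filterByExpr, all 9 mice in each fit, Benjamini-Hochberg adjustment over all genes, threshold 0.05), with DESeq2 1.42.0 as an alternative. Each SE is the log2 difference over the square root of F, and 95% intervals use the t distribution. Segment effects were compared with the mouse as a block. P-values of the group comparisons cover no more than the spread between these mice, and edgeR estimated that spread partly from all genes. In the segment fit edgeR shrank the spread to that of all genes (4508 degrees of freedom), so limma 3.58.1 was also run on the S3-like minus S1-like log2 CPM of each mouse (prior count 2). Limma also moderates the spread of each gene by that of all genes. In simulated data for AKI-CKD against Control, 64.5% of 200 genes changed 2-fold were called in all PT cells (17585 genes) and 64% in S3-like cells (7575 genes). The simulation gave each gene the spread typical of its level and left low-count genes unchanged, so these rates need not hold for the 9 genes.

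The 9 genes were named in every population. From the other lists, genes with an adjusted p under 0.05 and up to 4 of highest PT level were named, and for each transporter the 2 genes of most similar pattern. 1 gene of the brush border partner list is not reported here. The members and lists were chosen with earlier results of these data known. Alternatives changed the test, filter, library size, samples, replicate number, mitochondrial limit, doublets, Harmony, clusters counted as PT, segment definition and each mouse in turn. Levels are not corrected for gene length, so they are compared within a gene only. Counting intervals were not used, and barcodes are not independent replicates.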

Additional observations from a re-analysis of the deposited data

Results flagged for a closer look

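The S3-like minus S1-like difference of Slc7a13 was flagged because the effect of the same comparison differed between segments in a test of that difference. It was 0.86 ± 0.15 (SE, edgeR adjusted p = 0.000122) on the log2 scale for AKI-CKD against Control. For EGT added to cisplatin it was -0.82 ± 0.16 (SE, edgeR adjusted p = 0.000292). Both tests use the same AKI-CKD mice, and the spread in them came almost wholly from all genes together. With limma on the segment difference of each mouse the values were 0.94 ± 0.60 (SE, adjusted p = 0.933) and -0.91 ± 0.60 (SE, adjusted p = 0.875), so neither call held against the spread between mice. The S1-like level was below the T cell level in 9 of 9 mice, and both edgeR calls were lost without the second AKI-CKD mouse, where the differences were 0.53 and -0.49.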

How the results depend on the processing

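None of the 9 genes was called in any group comparison by the main test, and exceptions came from 2 settings. Without a filter on low counts 1 was called in S1-like cells for AKI-CKD against Control (Slc7a13, -1.08; 1.09% of all genes), 2 in S2-like cells (Slc7a13, -0.77, and Slc7a8, 0.54; 2.07%) and 1 in S2-like cells for AKI-CKD + EGT against AKI-CKD (Slc7a7, -0.81; 3.35%), where DESeq2 also called 1 (Slc7a7, -0.76; 2.34%). For the segment difference, Slc7a13 was called in both comparisons by the same edgeR fit without a filter on low counts (0.103% and 0.0963% of all genes), with only the 6 mice compared and with S2-like in place of S1-like cells. The number of the 9 called was 0 in both comparisons without Harmony, 0 with limma on the segment difference of each mouse and 0 with S2-like in place of S3-like cells (the last pair chosen after seeing the data). These counts of 0 stand without the share of all genes called and say little by themselves. Leaving out 1 mouse gave 0 to 1 for AKI-CKD against Control, where 12 to 48 of all genes were called. For AKI-CKD + EGT against AKI-CKD it gave 0 to 2, where 8 to 40 of all genes were called. Slc6a18 was also called there without the third AKI-CKD mouse (-0.84) or the first AKI-CKD + EGT mouse (-0.84). The limma fit takes its spread from the segment differences of the mice, moderated by all genes, and the edgeR fit almost wholly from all genes. The cause of the other changes was not tested.

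Signs turned for some differences that had not passed the test. Slc1a1 for AKI-CKD + EGT against AKI-CKD was 0.023 without Harmony, and the Slc7a8 segment difference was -0.0068 with S2-like in place of S3-like cells. Leaving out 1 mouse gave, for AKI-CKD against Control, -0.12 to 0.24 (Slc3a1), -0.43 to 0.0932 (Slc6a18) and -0.0133 to 0.12 (Slc6a19), and for AKI-CKD + EGT against AKI-CKD -0.0635 to 0.0486 (Slc1a1), -0.77 to 0.033 (Slc3a2), -0.34 to 0.18 (Slc6a18), -0.0868 to 0.61 (Slc7a13) and -0.37 to 0.11 (Slc7a8). Differences of segment shares in percentage points ran from -3.07 to 0.91 (S2-like, AKI-CKD against Control), -3.53 to 0.45 (S2-like, AKI-CKD + EGT against AKI-CKD) and -0.15 to 0.76 (S3-like, AKI-CKD + EGT against AKI-CKD).

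Counts over all genes moved more. In all PT cells edgeR called 8 and 0 genes, DESeq2 208 and 431, edgeR without a filter 77 and 197, and leaving out 1 mouse 0 to 11 and 0 to 176. Same-numbered mice did not deviate together (r from -0.455 to 0.344 in all PT cells), so numbers do not pair mice; with the replicate block 0 of the 9 genes and 0 and 0 genes in all PT cells were called.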
